A study of Mus musculus with 26 samples.

Results

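Common myeloid progenitors (CMP) were set against the progenitors that stand before and after them on the textbook path to granulocytes and macrophages. For each gene the mean log2 level of the CMP arrays was taken minus the average of the mean in MPPFL+ and the mean in GMP. MPPFL+ are multipotent progenitors that carry FL, read here as the cytokine receptor Flt3, and GMP are granulocyte-macrophage progenitors. The comparison used 9 of the 26 Affymetrix mouse expression arrays of a study on DNA methylation and lineage choice, 3 arrays for each of CMP, MPPFL+ and GMP. All 9 samples came from bone marrow of C57/Bl6 males aged 2 months, and the labels name no allele, transgene or agent in any of them. One label spells MPPFL+ as MMPFL+ and CLP as ALP. The other arrays, which entered the fit to estimate the spread, were MPPFL- (n = 5) and CLP (n = 3) of bone marrow and the thymocyte stages DN1, DN2 and DN3 (n = 3 each), with the same strain, age and sex on their labels. The labels give no sorting markers and are silent on whether each replicate was its own animal or pool, so every p-value here measures only the spread between these samples.

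A gene was taken as above both neighbours where CMP was higher than MPPFL+ and higher than GMP, each at an adjusted p below 0.05 (limma, Benjamini-Hochberg over all genes), and as below both where it was lower in each. Of 18193 genes, 267 (1.47%) lay above both neighbours and 705 (3.88%) below both. Both differences use the same CMP arrays, so an error in those arrays enters both. At the edge of the rule, Mrpl34 was just inside the upper group (adjusted p at most 0.0496 in limma for differences of 0.99 and 0.87), and Sphk1 was just outside it (0.0505 for 0.62 and 0.62). For the lower group, Tgfbr1 was just inside (0.04998 for -1.49 and -0.79) and Cmtm6 just outside (0.05005 for -1.02 and -1.002).

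In the usual scheme of blood formation, CMP can give rise to granulocytes and macrophages through GMP, and to red cells and platelets through a separate megakaryocyte-erythroid progenitor that was not among the populations. Gata1 and Klf1, the marker genes given for this comparison, encode transcription factors of that second branch. Gata1 binds DNA words built on the letters GATA and is needed for both red cells and megakaryocytes, the cells that shed platelets. Klf1 binds CACC boxes and drives the red cell programme. CMP are known to be a mixed population, and in bulk RNA more cells of a type and more RNA per cell cannot be told apart.

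The arrays share a lowest value of 2.17 on the log2 scale, which 30.3% to 37.2% of probe sets took on each of the 9 arrays, so differences from a gene near it are lower bounds. The CMP arrays were less alike than the others, with correlations across genes of 0.979 to 0.995 against 0.991 to 0.996 in MPPFL+ and 0.997 to 0.998 in GMP, and CMP replicate 1 stood apart from the other CMP arrays. The mean level of the poly-A spike-in controls, RNA added before labelling, was 8.59 to 9.34 on the CMP arrays, 7.22 to 7.50 in GMP and 3.75 to 5.09 in MPPFL+, so the populations also differ in a technical measure that cannot be told apart from the population. Over the 9097 genes at or above the median level, the CMP arrays were lower than the mean of their neighbours with a median difference of -0.25, which was 0.01 after quantile normalization, a shift of 0.27. As deposited, 3301 genes (18.1%) passed the comparison, 782 higher (4.30%) and 2519 lower (13.8%), and 23.7% of those that passed were higher. After quantile normalization 1393 were higher and 1442 lower, or 49.1% higher, and 440 genes (2.42%) lay above both neighbours and 361 (1.98%) below both. Of the 267 genes above both, 225 were also above both after quantile normalization, and of the 705 below both, 339 were also below both. With arrays blocked by clusters of spike-in level, 77 genes lay above and 109 below both. Hspa1a, Hspa1b, Gfi1b, Ms4a2, Epor and Cdkn1a, described below, then no longer lay above both, and Klf3, Vcam1, Ttc30a1, Mirt1, Tmlhe, Ighm, Ppox, Hspa8, Npm1, Polr1a, Polr1b, Cdk1, Cdk2, Mcm4 and Mcm6 no longer below both. The split between higher and lower genes therefore depends on the scaling, and single genes are read against that shift.

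**Figure D1:**
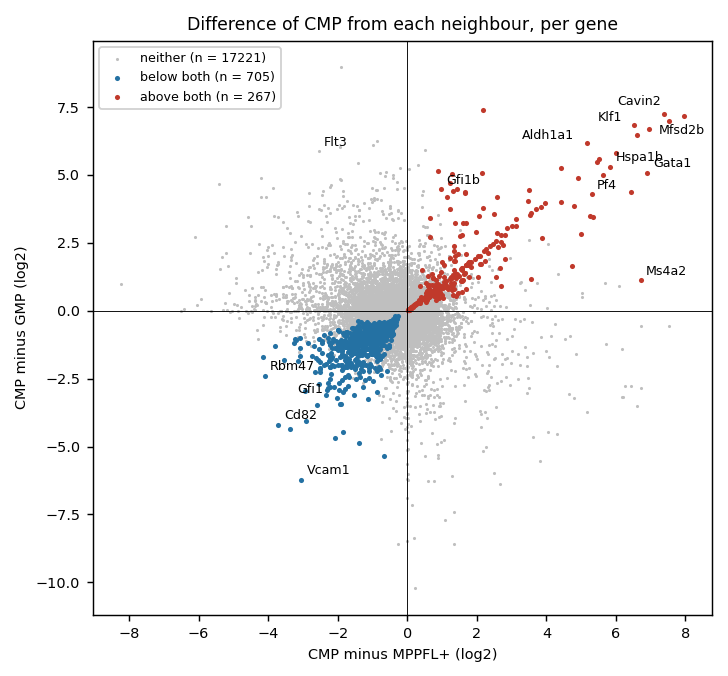
Each point is 1 of 18193 genes, with the difference of the CMP mean from the MPPFL+ mean on the x axis and from the GMP mean on the y axis, both in log2 units. The 267 genes above both neighbours (red) reach further from 0 than the 705 below both (blue), and Gata1, Klf1, Cavin2 and Mfsd2b lie at the far upper right. Both axes contain the same CMP arrays, which by itself stretches points along the diagonal.

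Gata1 and Klf1, the markers of the comparison, were high in CMP. For Gata1, on the CMP arrays it was at 10.89, 10.94 and 11.11, on the MPPFL+ arrays at 4.10, 3.72 and 4.39 and on the GMP arrays at 5.995, 5.76 and 5.94. The 3 groups did not overlap, and GMP was itself above MPPFL+ (limma adjusted p = 0.00127). Gata1 was 120-fold higher in CMP than in MPPFL+ and 33.9-fold higher than in GMP, and its difference from the neighbours' mean was 5.99 (SE 0.34, limma adjusted p = 2.93e-10). Klf1 was at 8.67, 8.92 and 9.74 on the CMP arrays, at 2.27, 2.27 and 3.24 in MPPFL+ and at 2.27, 2.27 and 2.27 in GMP, so it was close to the lowest value outside CMP. It was at least 91.8-fold higher in CMP than in MPPFL+ and at least 115-fold higher than in GMP (limma adjusted p = 7.20e-11 and 1.79e-11). In the MPPFL- arrays, which the comparison does not use, Gata1 was at 6.97 to 9.23 and Klf1 at 3.24 to 5.01, below every CMP array in both cases.

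Of 18 erythroid transcription factors and their partners that were measured, 3 lay above both neighbours (16.7%) and 1 below both (5.56%). Over all genes these shares were 1.47% and 3.88%. The values below are for this list. Their median difference from the neighbours' mean was 0.21, and 0.46 after quantile normalization, beside -0.00497 and 0 over all genes. Gfi1b, a repressor needed for red cells and megakaryocytes, was the third gene above both. Its CMP arrays were at 8.32, 8.48 and 8.86, its MPPFL+ arrays at 7.62, 7.81 and 7.36 and its GMP arrays at 3.81, 4.40 and 4.005, so that the groups did not overlap but CMP was only 0.96 above MPPFL+ (limma adjusted p = 0.0408). In MPPFL- Gfi1b was at 8.36 to 8.99, overlapping CMP. Zfpm1, the cofactor of Gata1, was 5.94 above GMP and only 0.52 above MPPFL+, and lay above both only after quantile normalization. Tal1 was 2.80 above GMP and -0.34 from MPPFL+. Against GMP, 12 of 18 members were higher in CMP and 1 was lower, where 7.63% and 13.8% of all genes were. Against MPPFL+, 3 of 18 were higher and 7 were lower, where 5.39% and 18.7% of all genes were. More members fell than rose on entry into CMP, but so did more of all genes. Over genes at or above the median level, the median difference of CMP from MPPFL+ was -0.35 on the deposited values. Klf3, a repressor related to Klf1, was the member below both, at 7.80, 8.97 and 8.77 in CMP, 11.60, 11.45 and 11.07 in MPPFL+ and 9.67, 9.70 and 9.75 in GMP. Of its 6 other probe sets, 1 lay above both neighbours instead, so the direction of Klf3 depends on the probe set read.

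The promoters of some of these genes are shown because the genes rose together with Gata1 and Klf1 and because GATA words and CACC boxes are what those factors bind. The sequences are from RefSeq (build GRCm38.p6), 250 bases before to 50 after the start site, written 5' to 3' along the gene. Capitals mark a GATA word, which is AGATAA or, with another first base, TGATAA, or either of these ending in G (the forms AGATAG and also TGATAG), on either strand; a word on the opposite strand reads backwards here, as in TTATCA. The red cell factor Klf1 (chr8:84901732-84902031, plus strand) has 1 such word on the opposite strand, at position -80 from the start. Ermap, a red cell membrane protein (chr4:119189946-119190245, minus strand), has 1 at -67. The platelet receptor subunits Gp1bb (chr16:18622354-18622653, minus strand) and Gp5 (chr16:30310732-30311031, minus strand) have 1 word at -22 and 3 words at -115, -93 and -77.
Klf1: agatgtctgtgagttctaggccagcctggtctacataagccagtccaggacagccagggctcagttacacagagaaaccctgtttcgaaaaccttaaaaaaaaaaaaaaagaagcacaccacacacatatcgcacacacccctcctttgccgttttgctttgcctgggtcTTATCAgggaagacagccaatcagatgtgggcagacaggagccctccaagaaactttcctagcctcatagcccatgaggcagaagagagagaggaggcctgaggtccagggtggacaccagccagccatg
Ermap: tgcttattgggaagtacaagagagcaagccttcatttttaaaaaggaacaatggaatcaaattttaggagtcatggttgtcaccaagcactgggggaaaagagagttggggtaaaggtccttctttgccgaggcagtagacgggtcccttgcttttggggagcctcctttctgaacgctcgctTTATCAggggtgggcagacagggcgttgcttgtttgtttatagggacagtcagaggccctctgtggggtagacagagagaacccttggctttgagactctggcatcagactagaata
Gp1bb: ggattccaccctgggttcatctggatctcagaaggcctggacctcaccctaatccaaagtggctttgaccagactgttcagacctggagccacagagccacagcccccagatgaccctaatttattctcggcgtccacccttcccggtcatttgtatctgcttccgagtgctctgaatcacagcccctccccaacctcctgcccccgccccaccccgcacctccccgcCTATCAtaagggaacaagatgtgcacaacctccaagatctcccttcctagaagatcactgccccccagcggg
Gp5: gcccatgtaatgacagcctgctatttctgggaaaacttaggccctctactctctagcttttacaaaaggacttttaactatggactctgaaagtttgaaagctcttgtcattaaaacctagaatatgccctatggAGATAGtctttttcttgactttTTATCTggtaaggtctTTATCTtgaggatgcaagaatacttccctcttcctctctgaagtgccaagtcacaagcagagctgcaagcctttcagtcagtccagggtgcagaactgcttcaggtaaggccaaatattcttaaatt
The windows of Gata1, Cavin2, Mfsd2b and Aqp1 hold no GATA word in these letters. Of the 15 genes with the largest rise above both neighbours, 12 had a promoter in the table, and 6 of their 13 promoters (46.2%) held a GATA word. Among all genes above both neighbours, 65 of 257 promoters did (25.3%, 211 of 267 genes matched), against 118 of 720 (16.4%, 569 of 705 genes matched) below both and 29.8% of all 32851 promoters, or 22.3% of those of measured genes. The word CCACACCC on either strand was in 7 promoters above both (2.72%), 18 below both (2.50%) and 3.56% of all promoters, and among the 15 genes only Hspa1a and Hspa1b held it. The erythroid transcription factor list was pooled with the red cell and platelet lists described next. Of their genes above both, 12 of 23 promoters held a GATA word (52.2%). Of their members neither above nor below both, 19 of 51 promoters did (37.3%). These are shares of short windows, and no binding was measured.

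Proteins of the red cell membrane and its channels formed one group of genes high in CMP. Of 28 globins and red cell proteins measured, 9 lay above both neighbours (32.1%, beside 1.47% of all genes) and 1 below both. The list's median difference was 0.68, and 0.80 after quantile normalization, which gave 10 above both. Without CMP replicate 1 the median was 0.30 and 10 genes lay above both. Minpp1, a phosphatase named here after its values were seen, was the member below both, and was not after quantile normalization or without CMP replicate 1. Mfsd2b, which exports sphingosine 1-phosphate from red cells and platelets, was at 9.26, 10.75 and 10.88 in CMP, 2.39, 2.21 and 2.39 in MPPFL+ and 2.86, 3.37 and 3.11 in GMP. All CMP arrays thus lay far above all others, with CMP replicate 1 the lowest of them, and the difference from the neighbours' mean was 7.57 (SE 0.27, limma adjusted p = 1.22e-13). Ermap was at 7.98, 8.56 and 8.65 in CMP, and at 2.17, 2.17 and 2.86 in MPPFL+ and 2.17, 3.18 and 2.36 in GMP. It was at least 63.8-fold above MPPFL+ and 56.7-fold above GMP, and it was near the lowest value in MPPFL- as well, at 2.17 to 2.23.

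Car1, a carbonic anhydrase of red cells, was at 10.83, 11.57 and 12.16 in CMP. It varied among its neighbours, at 2.31, 2.31 and 7.37 in MPPFL+ and 2.55, 6.75 and 4.28 in GMP, yet no neighbour array reached the CMP arrays, and the difference was 7.26 (SE 1.02, limma adjusted p = 5.54e-05). The water channel Aqp1 was at 7.36, 8.01 and 8.44 in CMP against 2.32, 2.32 and 2.32 in MPPFL+ and 2.32, 3.84 and 2.62 in GMP. Icam4, an adhesion protein of the red cell surface, was at 7.72, 7.71 and 8.18 in CMP, 4.43, 4.05 and 4.69 in MPPFL+ and 4.14, 3.63 and 3.74 in GMP. The blood group proteins Kel and Rhd, the membrane protein Tspo2 and the erythropoietin receptor Epor were the other 4 above both, all with CMP means of 3.75 to 5.30. Epor was at 2.35, 3.78 and 5.13 in CMP and at 2.18 on every MPPFL+ and GMP array, so 1 CMP array was near the lowest value and its rise rests on CMP replicates 2 and 3. The CMP arrays were also far apart for Tspo2 (5.30 ± 2.37, SD, n = 3) and Rhd (3.799 ± 1.46, SD, n = 3), and for Rhd they overlapped with a neighbour.

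The few globins measured, none of them an adult beta globin, stayed at their lowest values. The adult alpha globin Hba-a1 and the embryonic Hba-x were at 2.17 and the embryonic Hbb-bh1 at 2.98 in the mean of each of CMP, MPPFL+ and GMP. Alas2, the red cell enzyme that starts haem synthesis, had a mean of 3.42 in CMP, 2.17 in MPPFL+ and 2.67 in GMP. Of 23 genes of haem synthesis and iron supply, 0 lay above both neighbours by limma (1 at an unadjusted p under 0.05) and 1 below both, with a median difference of -0.07, and of 0.24 after quantile normalization, where 2 lay above both. Alas1, the general form of that enzyme, rose along the path instead, with means of 9.86 in MPPFL+, 11.23 in CMP and 14.003 in GMP (limma adjusted p = 0.00307 and 2.19e-06 for the steps into and out of CMP). The haem enzyme Ppox, the member below both, was not below both without CMP replicate 1 or after quantile normalization.

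Platelet genes formed the list with the largest share above both neighbours. Of 32 megakaryocyte and platelet genes measured, 14 lay above both (43.8%) and 1 below both, and the median difference of the list was 1.498, or 1.67 after quantile normalization. With arrays blocked by spike-in cluster 9 platelet genes lay above both, and with genes that are dim on average left out, 6 did. The red cell list gave 7 and 0 in those settings. Cavin2, a caveola protein abundant in platelets, was at 8.65, 10.16 and 9.83 in CMP, at 2.17, 2.17 and 2.17 in MPPFL+ and at 2.21, 2.17 and 2.54 in GMP. It was at the lowest value on every MPPFL+ array and was at least 166-fold higher in CMP than in MPPFL+ and at least 151-fold higher than in GMP, a difference of 7.31 (SE 0.33, limma adjusted p = 6.25e-12). Among the named genes with other probe sets, all of these agreed in class for Cavin2, Mfsd2b, Hspa1b, Gata2, Ldhb, Rasa2 and Cdkn1a. No other probe set did for Gp1bb, Slamf1, Cx3cr1, Ms4a2, Cd82, Vcam1, Hfe, Sqor, Klf3, Ppox, Cdk2, Mcm4, Mcm6, Polr1a, Pa2g4, Npm1 and Hspa8.

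The platelet receptor for von Willebrand factor is built from glycoproteins Ib, IX and V, and Gp1bb, Gp9 and Gp5 of its subunits were above both. Gp1bb was at 9.80, 8.01 and 8.61 in CMP, 2.17, 2.17 and 2.28 in MPPFL+ and 2.46, 2.25 and 2.28 in GMP, with CMP replicate 1 the highest. Gp5 was at 7.29, 7.45 and 8.18 in CMP and at 2.18 on all MPPFL+ and GMP arrays, so CMP was at least 44.2-fold higher. For Gp9 the means were 6.84 in CMP, 5.15 in MPPFL+ and 3.60 in GMP, a smaller rise. Their ligand Vwf was at 9.86, 10.23 and 10.39 in CMP, 5.46, 4.47 and 3.96 in MPPFL+ and 4.48, 4.09 and 5.13 in GMP, which made it 46.1-fold and 48.2-fold higher in CMP, with no overlap.

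Other platelet genes showed the same order on both sides. Pf4, a chemokine stored in platelet granules, was at 14.02, 13.28 and 13.31 in CMP, 8.12, 8.03 and 8.55 in MPPFL+ and 9.28, 9.13 and 9.32 in GMP, all well above the lowest value, and was 39.5-fold and 19.6-fold higher in CMP. Itga2b, the integrin subunit CD41, was at 10.93, 11.31 and 11.69 in CMP, 6.81, 7.31 and 6.57 in MPPFL+ and 7.29, 7.09 and 7.49 in GMP, a difference of 4.22 with SE 0.36 and limma adjusted p = 9.24e-08. Its partner Itgb3 was 5.69 above MPPFL+ but only 1.01 above GMP, and lay above both only after quantile normalization. Rab27b, a GTPase of granule release, was at 7.33, 7.62 and 7.35 in CMP, 4.05, 2.61 and 2.36 in MPPFL+ and 2.17, 2.17 and 2.17 in GMP. In MPPFL- Rab27b was at 7.52 to 8.65, overlapping CMP, while Pf4 and Itga2b lay below every CMP array there, at 10.74 to 11.78 and 9.46 to 10.36. The thrombin receptor F2r had means of 14.03 in CMP, 12.74 in MPPFL+ and 8.97 in GMP and so fell mainly towards GMP. Thbs1 counts among the 14 although its CMP mean was 2.23 and its difference 0.06, next to the lowest value. Fli1, a transcription factor of megakaryocytes named here after its values were seen, was the member below both, with means of 9.85 in CMP, 11.45 in MPPFL+ and 11.28 in GMP.

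**Figure D2:**
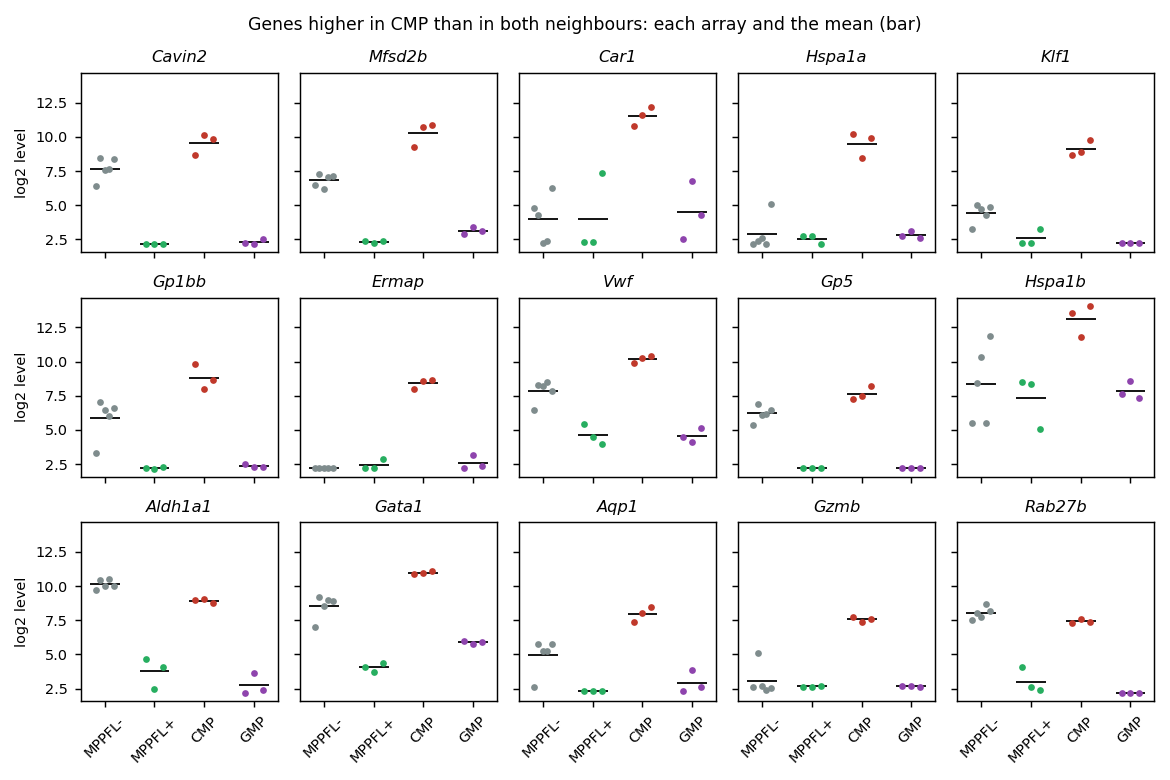
Log2 level on every array of MPPFL- (n = 5), MPPFL+, CMP and GMP (n = 3 each) for the 15 named genes with the largest rise above both neighbours, with a bar at the mean. In each panel all CMP points (red) lie above all MPPFL+ (green) and GMP (purple) points, while the MPPFL- points (grey) lie between them for genes such as Gata1 and Gp5 and above CMP for Aldh1a1.

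Of 20 mast cell and basophil genes, 4 lay above both neighbours (20%, beside 1.47% of all genes) and 0 below both by limma (0 at an unadjusted p under 0.05). The list's median difference was 0.52, and 0.68 after quantile normalization, but 0.29 without CMP replicate 1. Ms4a2, the beta chain of the high-affinity IgE receptor, was at 9.82, 9.64 and 10.66 in CMP, 3.34, 3.32 and 3.34 in MPPFL+ and 9.22, 8.72 and 8.79 in GMP. It was 105-fold higher in CMP than in MPPFL+ but only 2.19-fold higher than in GMP (limma adjusted p = 0.0111), and thus mostly stayed high in GMP. Gzmb, which encodes the protease granzyme B, was at 7.70, 7.39 and 7.61 in CMP and at 2.63 to 2.71 in MPPFL+ and 2.63 to 2.71 in GMP. Gata2, a factor of stem cells and mast cells, was at 11.21, 11.20 and 11.09 in CMP, 9.60, 9.49 and 8.26 in MPPFL+ and 7.99, 7.29 and 7.75 in GMP. Slc18a2, the transporter that loads amines into granules, was at 9.32, 9.63 and 9.73, 6.94, 6.30 and 6.08 and 5.86, 6.05 and 6.58 in the same order. In MPPFL-, Slc18a2 was at 10.44 to 11.39, above every CMP array, and Gata2 at 10.97 to 11.33, overlapping CMP. Ms4a2 and Gzmb lay below every CMP array there, at 4.87 to 5.95 and 2.41 to 5.10. Other members of the list did not peak: Hdc, the histamine-forming enzyme, had means of 3.83 in MPPFL+, 10.27 in CMP and 13.06 in GMP, and Mcpt8 6.13, 8.85 and 10.44.

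Among 30 stem and early progenitor genes, 3 lay above both neighbours (10%, beside 1.47% of all genes) and 0 below both by limma (0 at an unadjusted p under 0.05). Aldh1a1, a retinaldehyde dehydrogenase, was at 8.99, 9.03 and 8.77 in CMP, 4.70, 2.45 and 4.11 in MPPFL+ and 2.17, 3.64 and 2.43 in GMP. The CMP arrays were tight and did not overlap with either neighbour at a difference of 5.68 with SE 0.35 and limma adjusted p = 6.76e-10, but all MPPFL- arrays, at 9.71 to 10.49, were higher still. The angiopoietin receptor Tek showed the same order, at 5.86, 6.72 and 6.82 in CMP, 4.66, 3.89 and 3.09 in MPPFL+, 2.27, 2.27 and 2.35 in GMP and 8.28 to 8.42 in MPPFL-. Slamf1, the stem cell surface protein CD150, was at 3.94, 6.05 and 4.92 in CMP and at 2.22 to 2.38 in MPPFL+ and 2.43 to 2.44 in GMP, while MPPFL- was at 4.93 to 6.76. In the list 17 of 30 members were lower in CMP than in MPPFL+ (18.7% of all genes were) and 22 of 30 were higher in CMP than in GMP (7.63% of all genes). Both steps down were passed by the same gene in 14 of 30 members (46.7%) and in 2.78% of all genes. Flt3 itself was at 13.43, 13.53 and 12.99 in MPPFL+, 10.77, 10.69 and 10.83 in CMP and 4.78, 4.43 and 5.48 in GMP, which shows such a step in the gene that gives MPPFL+ its name.

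The inducible heat shock proteins Hspa1a and Hspa1b, chaperones that cells make under stress, were also above both neighbours. Hspa1a was at 10.19, 8.43 and 9.90 in CMP, 2.76, 2.75 and 2.17 in MPPFL+ and 2.75, 3.12 and 2.62 in GMP, and Hspa1b at 13.56, 11.81 and 14.07, 8.52, 8.36 and 5.08 and 7.62, 8.56 and 7.36. CMP did not overlap with either neighbour, but the standard errors were large (1.23 and 1.48). Hspa1b was not above both without CMP replicate 1, and the probe sets of these near-identical copies may read each other. Of the 16 heat shock genes these were the only ones above both, and Hspa8 was below both by 0.39 but not without CMP replicate 1 or after quantile normalization. Of 20 immediate early and stress genes 0 lay above both by limma (1 at an unadjusted p under 0.05), with a median difference of 0.33, or 0.58 after quantile normalization. Within the other populations Hspa1a varied too, at 2.71, 2.75 and 10.39 on the DN3 arrays and 12.01, 14.39 and 13.43 on the DN1 arrays, where the DN1 arrays were above every CMP array.

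Outside those lists' main members, Cx3cr1, the fractalkine receptor of monocytes, was at 10.03, 9.73 and 9.12 in CMP, 5.202, 4.51 and 4.94 in MPPFL+ and 8.55, 7.99 and 7.36 in GMP, and was 26.8-fold and 3.16-fold higher in CMP. The cell cycle inhibitor Cdkn1a was at 9.87, 9.34 and 9.21 in CMP, 7.46, 7.55 and 8.86 in MPPFL+ and 7.02, 6.42 and 6.69 in GMP, with no overlap (limma adjusted p = 0.0400 against MPPFL+), but it did not stay above both without CMP replicate 1. Cdk1, Cdk2, Mcm4 and Mcm6, which drive the cycle and license replication, were the 4 of 41 cell cycle genes below both. That was 9.76%, beside 3.88% of all genes. The differences of these 4 genes were -0.74, -1.13, -0.64 and -0.69, and after quantile normalization 1 gene of the list was below both and 3 above both. No cell cycle gene was near the lowest value in CMP. Of the 9097 genes at or above the median level, 678 lay below both, so the share only describes the list. Of 29 ribosome biogenesis and Myc genes, 3 were below both (10.3%) and 1, Pa2g4, above both (3.45%, beside 1.47% of all genes). Npm1, Polr1a and Polr1b were not below both without CMP replicate 1, and of these only Polr1a was below both after quantile normalization. Cdk2 stayed below both, and Pa2g4 above both, in each of those settings.

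The genes below both neighbours were mostly expressed well above the lowest value, and only 9 of the 705 were near it in CMP. Gfi1, a repressor needed for neutrophils, was at 9.50, 10.01 and 9.43 in CMP, 12.15, 12.01 and 11.46 in MPPFL+ and 12.41, 12.48 and 12.52 in GMP. It thus dipped while its relative Gfi1b rose, with -2.53 (SE 0.24, limma adjusted p = 5.04e-07) as its difference from the neighbours' mean and -2.25 after quantile normalization. Csf3r, the receptor for granulocyte colony-stimulating factor, was at 9.31, 9.40 and 10.04 in CMP, 11.21, 11.06 and 11.44 in MPPFL+ and 10.76, 10.92 and 10.71 in GMP. These were the 2 of 29 granulocyte-macrophage genes below both (6.90%, beside 3.88% of all genes). Above both were 0 by limma (0 at an unadjusted p under 0.05). In that list 20 of 29 members were higher in CMP than in MPPFL+ (5.39% of all genes were). Lower in CMP than in GMP were 16 of 29 (13.8% of all genes were), and 10 of 29 passed both steps up (34.5%, beside 1.39% of all genes). Mpo, the granule enzyme myeloperoxidase, was at 14.06, 14.21 and 14.42 in MPPFL+, 15.43, 15.41 and 15.59 in CMP and 16.12, 16.13 and 16.08 in GMP. Cebpa, the factor that starts the granulocyte programme, was at 6.23, 6.90 and 6.34, 9.08, 8.32 and 8.60 and 9.07, 8.62 and 8.85 in the order MPPFL+, CMP and GMP, so the CMP and GMP arrays overlapped.

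Several receptors of innate immunity and adhesion were below both. Tlr4, the receptor for bacterial lipopolysaccharide, was at 2.95, 4.79 and 4.26 in CMP, 7.47, 7.18 and 6.10 in MPPFL+ and 8.08, 8.11 and 8.05 in GMP, at least 7.53-fold and 16.9-fold lower in CMP with no overlap. Pglyrp1, which binds bacterial peptidoglycan, was at 3.10, 2.26 and 3.15 in CMP, 6.54, 6.53 and 5.6 in MPPFL+ and 7.34, 7.19 and 7.08 in GMP, so its level in CMP was near the lowest value and the fall is at least 10.5-fold and 20.7-fold. The adhesion molecule Vcam1 was at 4.54, 6.65 and 4.80 in CMP, 8.85, 7.60 and 8.70 in MPPFL+ and 11.34, 11.70 and 11.61 in GMP. CMP was far below GMP but its replicate 2 came near the lowest MPPFL+ array, and without CMP replicate 1 Vcam1 was not below both. The tetraspanin Cd82 was at 3.33, 7.13 and 6.92, 9.77, 10.05 and 8.68 and 9.79, 10.28 and 9.89, and the collagen receptor Lair1 at 3.47, 7.16 and 7.22, 9.04, 8.92 and 8.71 and 9.12, 8.79 and 8.84, in the order CMP, MPPFL+ and GMP. In both, CMP replicate 1 lay far under the other CMP arrays, and without it the difference shrank from -3.95 to -2.72 for Cd82 and from -2.95 to -1.71 for Lair1.

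Other strong dips were in enzymes and regulators of no common list. Rbm47, an RNA-binding protein, was at 4.46, 4.85 and 4.40 in CMP, 9.15, 8.91 and 7.95 in MPPFL+ and 6.98, 6.93 and 6.96 in GMP, with tight arrays on both sides and a difference of -3.25 with SE 0.22 and limma adjusted p = 4.05e-09. Hfe, which regulates iron uptake, was at 5.58, 6.28 and 6.57, 8.61, 8.55 and 8.33 and 9.32, 9.23 and 9.24 in the same order, and the Ras inhibitor Rasa2 at 7.18, 8.54 and 7.44, 10.15, 9.96 and 9.87 and 10.46, 10.54 and 10.65. Sqor, which oxidizes hydrogen sulfide in mitochondria, was at 7.21, 7.57 and 7.90 in CMP, 4.99-fold below MPPFL+ and 7.48-fold below GMP. In these 4 genes all CMP arrays lay under all neighbour arrays. Ldhb, a lactate dehydrogenase subunit, was at 10.28, 8.21 and 7.69 in CMP, where replicate 1 was the highest rather than the lowest array, and at 10.95 to 11.41 in MPPFL+ and 11.33 to 11.51 in GMP. The differences of Galm, Tmlhe and Mirt1 were -3.03, -2.37 and -2.44. Ttc30a1 was at 2.95, 7.59 and 6.74 in CMP, and its difference of -2.40 shrank to -0.99 without CMP replicate 1, when it was not below both.

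**Figure D3:**
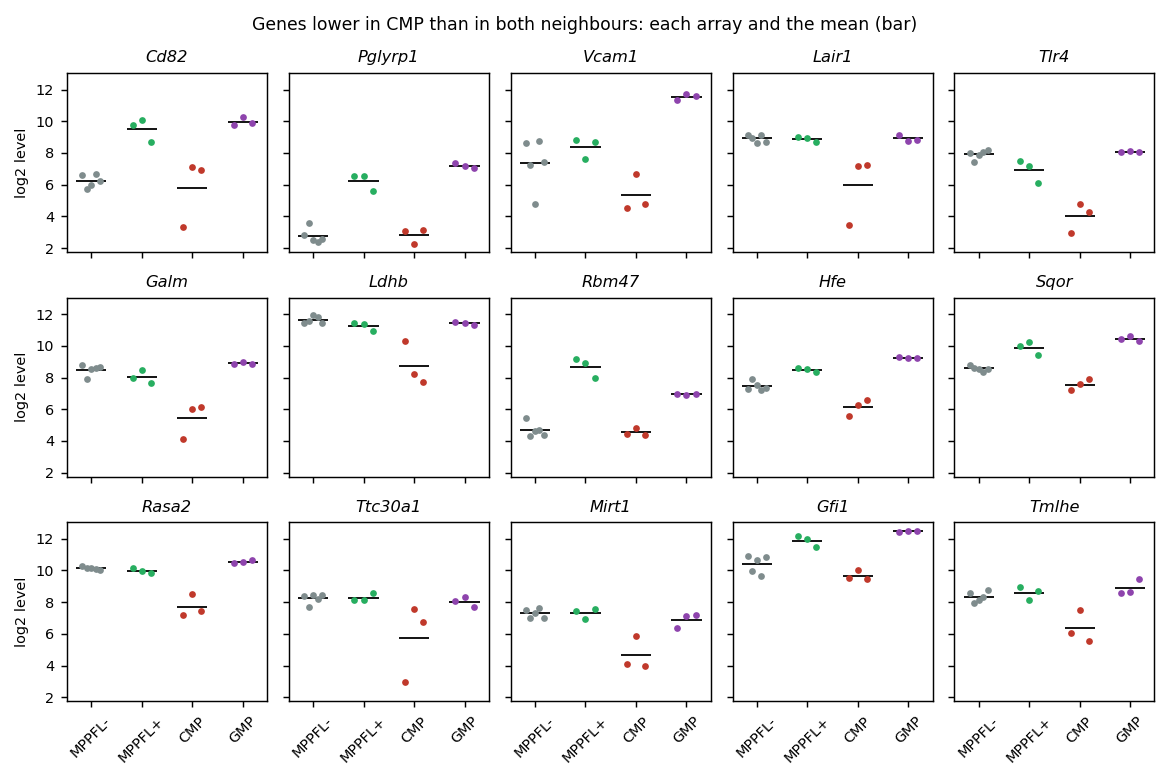
Log2 level on every array of MPPFL- (n = 5), MPPFL+, CMP and GMP (n = 3 each) for the 15 named genes with the largest fall below both neighbours, with a bar at the mean. All CMP points (red) lie below all MPPFL+ (green) and GMP (purple) points, and in Cd82, Lair1 and Ttc30a1 a single CMP point, replicate 1, lies far under the other CMP points.

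Markers of other cell types gave few calls. Of 10 B cell, 17 T and NK cell, 17 stroma and endothelium and 7 eosinophil genes, 0 lay above and 0 below both neighbours by limma, and 0 of each list did so at an unadjusted p under 0.05. Near the lowest value in CMP were 11 of the T and NK cell, 11 of the stroma and endothelium and 5 of the eosinophil genes. A fall there could hardly show. Of the 7 eosinophil genes, 4 were lower in CMP than in GMP and 4 were lower than the neighbours' mean (13.8% of all genes were in each). The T cell gene Cd3e was at 2.18 to 2.47 and the stromal chemokine Cxcl12 at 2.17 to 2.35 on the CMP arrays, and the endothelial cadherin Cdh5 at 2.17 on all 9 arrays. Of 22 dendritic cell and macrophage genes, Cx3cr1 was above and Vcam1 below both, and the list's log2 summed level was 13.31 to 14.47 in CMP, 13.64 to 14.26 in MPPFL+ and 13.72 to 13.88 in GMP. The macrophage gene C1qa was at 2.17 to 2.19 in CMP, at 2.61, 4.19 and 5.16 in MPPFL+ and at 2.17 to 2.84 in GMP, and was lower in CMP than in MPPFL+ (limma adjusted p = 0.00984). The macrophage gene Adgre1 was at 6.85, 5.9998 and 5.51 in CMP, between 3.50 to 3.99 in MPPFL+ and 9.002 to 9.06 in GMP. The B cell list's log2 summed level was 8.84 to 9.56 in CMP, 10.65 to 10.82 in MPPFL+ and 9.06 to 9.33 in GMP, with 7 of its 10 genes within 1 unit of the lowest value in CMP. Its receptor component Cd79b was at 9.19, 8.11 and 8.56 in CMP, 9.10 to 9.24 in MPPFL+ and 8.79 to 9.03 in GMP. The progenitor markers Kit and Cd34 were high throughout, at 11.59, 12.90 and 12.46 and 12.53, 13.71 and 13.67 on the CMP arrays. The part of other cells in the results was not tested.

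The median difference from the neighbours' mean was also taken over each list. On the deposited values it was 0.20 for the stem and early progenitor list, 0.30 for the granulocyte-macrophage list, 0.0018 for the heat shock list, -0.24 for the cell cycle list, -0.10 for the ribosome biogenesis and Myc list and -0.028 for the early lymphoid list. After quantile normalization it was 0.45 for the stem and early progenitor list, 0.66 for the granulocyte-macrophage list, 0.15 for the heat shock list, -0.017 for the cell cycle list, 0.17 for the ribosome biogenesis and Myc list and -0.006 for the early lymphoid list. On the deposited values it was -0.068 for the interferon response list, -0.24 for the eosinophil list, -0.05 for the B cell list, 0 for the T and NK cell list, -0.015 for the dendritic cell and macrophage list and 0 for the stroma and endothelium list. After quantile normalization it was 0.086 for the interferon response list, -0.22 for the eosinophil list, -0.066 for the B cell list, 0 for the T and NK cell list, -0.0097 for the dendritic cell and macrophage list and 0 for the stroma and endothelium list. Apart from the platelet, red cell and mast cell lists, no list had a median above 0.5 on the deposited values.

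**Figure D4:**
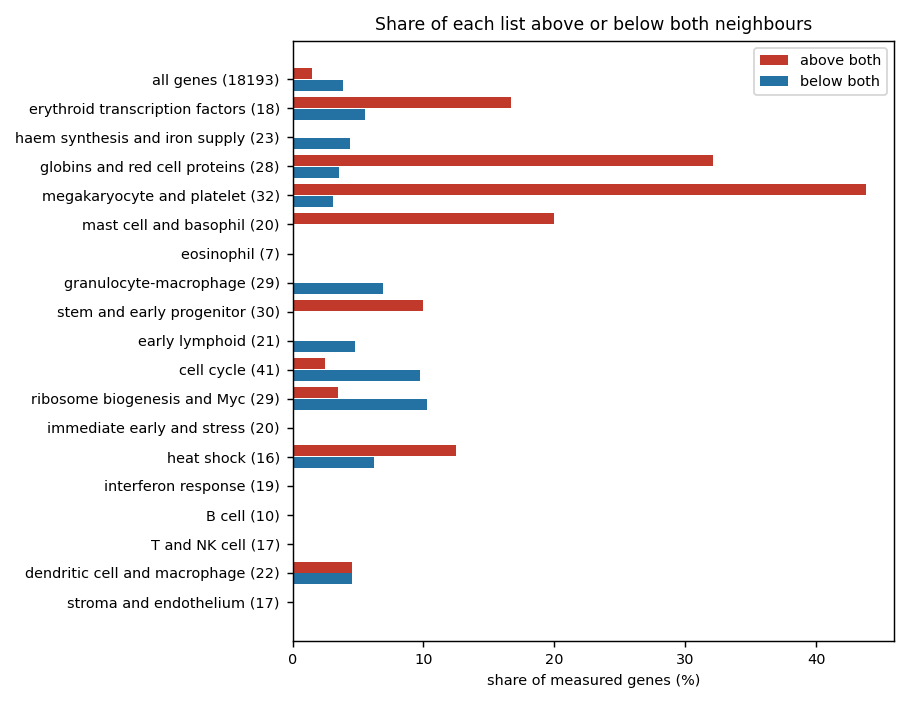
Bars give the share (%) of each gene list, with the number of measured genes in brackets, that lay above both (red) or below both (blue) neighbours on the deposited values. The platelet list (43.8%) and the red cell list (32.1%) have the longest red bars, beside 1.47% of all genes, and 6 lists have no bar at all.

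Over all 267 genes above both neighbours, 182 (68.2%) had CMP arrays that overlapped with neither neighbour, and of the 705 below both 628 (89.1%) did. The same arrays chose these genes and no share over all genes was taken, so these counts only describe the members. A difference of at least 1 log2 unit from each neighbour was met by 124 genes above and 294 below both, and by 202 and 154 after quantile normalization. In 114 of the 267 both neighbours were within 1 unit of the lowest value, so their differences are lower bounds. The lower quartile of the CMP mean over the 267 was 3.15, itself within 1 unit of that value. Some of these rises, like that of Thbs1, are therefore small steps next to the lowest value. At or above the median level were 117 of the 267. The median of the smaller of the differences was 0.91 in both groups of genes. Without CMP replicate 1 the counts were 368 above and 528 below both, and without CMP replicate 2 they were 1171 and 987.

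The neighbours were also set against each other. Between GMP and MPPFL+, 22 of the 267 genes above both were higher in GMP (8.24%, beside 12.6% of all genes), 31 lower (11.6%, beside 18.2%) and 214 passed in neither direction. Of the 705 below both, 59 were higher (8.37%), 74 lower (10.5%) and 572 passed in neither direction. A gene that misses the threshold is not shown to be equal, and these arrays also chose the genes, so the counts are a description.

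The rise in CMP was not confined to CMP among all 8 populations. CMP had the highest mean in 185 of the 267 genes above both, beside 1973 of all 18193 genes, though the rule itself puts CMP above 2 populations. DN2 was highest in 22, DN3 in 21, DN1 in 20, MPPFL- in 16 and CLP in 3. Over all 18193 genes they were highest in 2264, 2512, 1623, 3278 and 1855, in that order. In 120 of the 267 (44.9%) all CMP arrays also lay above all MPPFL- arrays, and in 12 all MPPFL- arrays lay above all CMP arrays. In 92 of the 267 all MPPFL- arrays lay above all MPPFL+ arrays. The rule chose genes that were low in MPPFL+ beside CMP. No share over all genes was taken for these counts of arrays, so they only describe the members. The median level of the 267 genes was 4.91 in MPPFL-, 3.53 in MPPFL+, 7.16 in CMP and 3.45 in GMP, and 2.76 to 3.06 in CLP and the thymocyte stages. With ties left out, CMP had the lowest mean in 369 of the 705 genes below both, beside 1697 of all genes. DN3 was lowest in 145, DN1 in 93 and DN2 in 73, beside 2453, 1402 and 1491 of all genes.

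**Figure D5:**
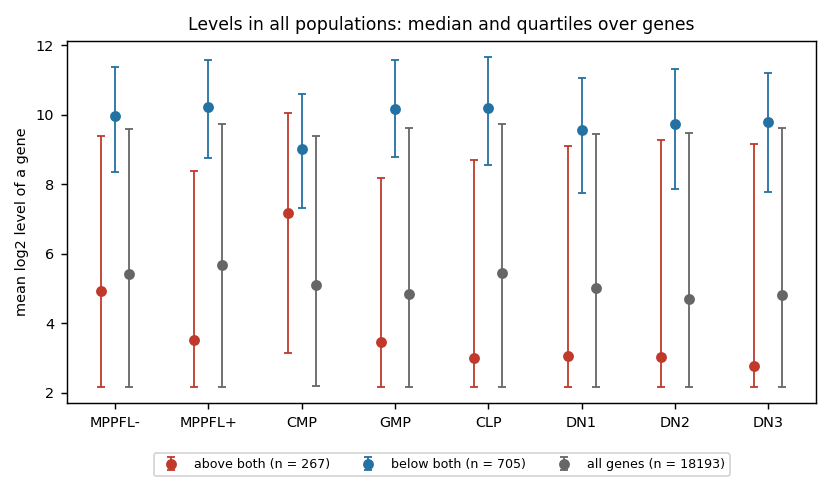
Points are the median, over the genes of a group, of the mean log2 level in each of the 8 populations, and bars run from the lower to the upper quartile. Genes above both (red, 267) have their highest median in CMP at 7.16 and the next in MPPFL- at 4.91, and genes below both (blue, 705) have their lowest in CMP at 9.02, while the median of all genes (grey, 18193) is 5.10 in CMP.

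MPPFL- was also set against CLP. The levels on these arrays are not in the differences that chose the genes, though the arrays did enter the estimate of the spread behind the p-values. They also entered the average level by which the probe set of each gene was chosen. Of the 267 genes above both, 83 were higher in MPPFL- than in CLP (31.1%, beside 9.95% of all genes) and 24 lower (8.99%, beside 14.9%). Among genes at or above the median level the shares were 54 of 117 (46.2%) higher and 19 (16.2%) lower, beside 15.3% and 24.8% of all such genes. That level is an average over all arrays, MPPFL- included, so high values in MPPFL- help a gene pass this filter. The shares after the filter therefore only describe the members. After quantile normalization 161 of 440 genes above both were higher (36.6%, beside 12.5% of all genes). Cavin2, Mfsd2b, Vwf, Gp5, Aldh1a1, Gata1 and Rab27b were among those higher in MPPFL-: Gata1 was at 6.97 to 9.23 in MPPFL- and 3.69, 3.69 and 3.97 in CLP (limma adjusted p = 4.42e-09), and Gp5 at 5.33 to 6.92 and 2.18, 2.18 and 2.17 (limma adjusted p = 7.97e-11). Ermap, Car1, Gzmb and Hspa1a were not (limma adjusted p = 1, 0.294, 0.466 and 0.260). Of the 705 below both, 95 were higher in MPPFL- (13.5%) and 200 lower (28.4%, beside 14.9%). After quantile normalization 81 (22.4%) and 96 (26.6%) of 361 were, beside 12.5% and 13.6% of all genes.

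Among the CMP arrays, replicate 1 was the lowest in 488 of the 705 genes below both, and it was the lowest in 4744 of all 9097 genes at or above the median level. It was the highest in 117 of the 267 genes above both (43.8%), the lowest in 88 of the 267, and the highest in 33.3% of those 9097. Of the 9 red cell genes above both, replicate 3 was the highest in 8, where it was the highest in 31.5% of the 9097. Replicate 1 was the lowest in 7 of the 9, as it was in many of all genes. Gata1, Klf1 and Gfi1b were also highest on replicate 3 and lowest on replicate 1. The 14 platelet genes above both were highest on replicate 1 in 5, replicate 2 in 2 and replicate 3 in 7. They were lowest on replicate 1 in 7, on replicate 2 in 6 and on replicate 3 in 1. With 3 arrays this remains a description, and no difference between the lists was tested.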

How the data were processed

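Messenger RNA had been measured on 26 Affymetrix mouse arrays, 1 per sample, in 8 populations. Per the labels, RNA was extracted with Trizol and biotinylated cRNA was hybridised. The values were used on the log2 scale as deposited by the authors, and the normalization method was not given in the sources used here. A recurring lowest value of 2.17 was read from the values. The number of arrays limits the precision.

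Of 45101 probe sets, 64 were controls, and 34958 carried 1 gene name in the platform annotation, 932 several and 9211 none. Gene IDs of 34754 were found in RefSeq's mouse gene table and 0 symbols changed. Where a gene had several probe sets, the one of highest average level was kept, which gave 18193 genes. Of these, 9010 had more than 1 probe set and 1278 were at the lowest value everywhere. All arrays were fitted with limma 3.58.1 in R 4.3.3 (lmFit and eBayes, 18 residual and 0.553 prior degrees of freedom), with population as the only term, two-sided, and Benjamini-Hochberg adjustment over all genes. The fit was tested on simulated data with known changes.

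The members and the 18 gene lists were chosen with earlier results of these data known, and unmeasured list members are not reported. Lists are described by counts and medians, with no test. Named genes were up to 15 above and 15 below both neighbours, ranked by the smaller difference, whose CMP arrays overlapped with no neighbour array, whose higher side reached the median gene level of 5.31 and that carried an assigned name. Up to 5 members of each list, Gata1, Klf1 and cell type markers were added, and other list members given with their means or differences were chosen after their values were seen. A level within 1 log2 unit of the lowest value on a group's arrays was treated as near it, and folds against it are given as at least. Replicate numbers are shared between populations, but same-numbered arrays did not deviate together (correlations of -0.154 to 0.101), so they were not paired. Alternatives were another scaling, probe set rule, filter on dim genes, prior, sample choice and covariate. Quantile normalization without CMP replicate 1 was added after the data had been seen.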

Additional observations from a re-analysis of the deposited data

Results flagged for a closer look

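Among the 15 genes with the largest rise above both neighbours, 5 had an array in MPPFL-, the only population with over 3 arrays, whose gap to the others was unusually wide for 5 arrays. Chance gives such a gap in about 1 of 20 independent groups, but these genes share the same 5 arrays, so their gaps are not independent. Replicate 1, which gave 2 of the gaps below, was also the lowest MPPFL- array for Gata1, Klf1, Cavin2, Vwf, Gp5, Aldh1a1 and Rab27b. For Mfsd2b, Car1, Hspa1b and Gzmb it was not. Hspa1a was at 5.103 on replicate 5, against 2.17 to 2.62 on the others. Gp1bb was at 3.31 on replicate 1, against 6.02 to 7.04, and Aqp1 was at 2.64 on replicate 1, against 5.26 to 5.77. Gzmb was at 5.095 on replicate 2, against 2.41 to 2.72. Ermap was at 2.23 on replicate 5 and at 2.17 on all others, which is a difference next to the lowest value. The comparison of CMP with its neighbours does not use these arrays other than for the spread and for the average level that chose probe sets and named genes.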

How the results depend on the processing

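The counts moved with the processing while 52 named genes kept their direction. These leave out genes named only as cell type markers. Over 19 settings, 0 of 971 differences from the neighbours' mean reversed and 43, in 14 genes, no longer passed. The 52 were chosen from these same arrays for such differences, so a reversal was unlikely from the start. Of the markers, Cd34 went from -0.14 to 0.09 and Adgre1 from -0.28 to 0.04 after quantile normalization, passing in neither. As deposited, 3301 genes passed, 782 higher and 2519 lower, with 267 above both and 705 below both. Quantile normalization gave 1393 higher, 1442 lower, 440 above and 361 below both. Setting arrays to a common median over genes that are not dim gave 9523 passing, 7662 higher, 1183 above and 433 below both, because genes at the lowest value are moved by that construction. The 9 arrays alone gave 1701 passing, 385 higher, 1316 lower, 121 above and 373 below both, with fewer samples. Using every probe set gave 5223 passing, 1522 higher and 535 above both, and a filter on dim genes gave 155 above both. A random block for clusters of spike-in level (correlation 0.427) gave 900 passing, 239 higher, 661 lower, 77 above and 109 below both. Hspa1a, Gfi1b, Ms4a2, Epor, Vcam1, Mirt1, Tmlhe and Ttc30a1 were among the genes lost, and Hspa1a had limma adjusted p-values of 0.0674 and 0.0868 there. Quantile normalization without CMP replicate 1 gave 1381 higher, 1172 lower, 541 above and 303 below both, and asking for a difference of at least 1 gave 124 and 294. Between GMP and MPPFL+, quantile normalization gave 45 higher and 55 lower of those above both, and 39 and 48 of those below both. Between MPPFL- and CLP it gave 161 higher and 46 lower of those above both, and 96 lower of those below both. The cause of these changes was not tested unless named.

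Leaving out 1 array at a time gave 2677 to 4672 genes passing, 654 to 1923 higher, 1871 to 2749 lower, 203 to 1171 above and 525 to 987 below both. The highest counts above both came without CMP replicate 2 (1171) and without CMP replicate 3 (946), and the count of higher genes was 1923 and 1537 without them. With the replicate number as a block, 2786 genes passed, 648 higher and 2138 lower, with 222 above and 552 below both, but the numbers pair no samples. Of the red cell list 9 to 10 genes were above both without each CMP array in turn, and of the platelet list 14 to 15; leaving out each MPPFL+ or GMP array gave 8 to 9 and 11 to 14. With the random block they were 7 and 9, and with the filter on dim genes 0 and 6, since the filter removes genes that are dim on average. Over 18 settings, which leave out the filter on dim genes and the use of every probe set, 54 genes remained above both and 76 below both in every one.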

Other observations

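For other lists the steps into and out of CMP are given. Of 19 interferon response genes, 10 were lower in CMP than in MPPFL+ (18.7% of all genes were) and 8 were higher in CMP than in GMP (7.63% of all genes), while by limma 0 lay above and 0 below both neighbours (0 and 1 at an unadjusted p under 0.05). The same gene passed both steps down in 6 of 19 (31.6%, beside 2.78% of all genes). Of 21 early lymphoid genes, 12 were lower in CMP than in MPPFL+ and 7 higher in CMP than in GMP, 7 passed both steps down (33.3%), and 1, Ighm, was below both. Ighm, the immunoglobulin heavy chain constant region gene, was at 11.36, 10.79 and 10.96 in CMP, 12.05, 12.29 and 12.72 in MPPFL+ and 12.48, 12.33 and 12.24 in GMP, so it was high in GMP as well. Its probe set was 1 of 11 for the gene, and 1 of the 10 others was also below both.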
